A study of Mus musculus with 6 samples.

Results

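The genes described here are 3 FOXO transcription factors (Foxo1, Foxo3 and Foxo4) and 7 genes known as their direct targets (Txnip, Sesn1, Sesn3, Ccng2, Pik3ip1, Bcl6 and Klf15). The 10 were taken by name from a gene count table of 34542 genes, and all 10 are in it and also in a table of exon and intron counts for 15543 genes. Their RNA was measured by sequencing of polyadenylated RNA from fetal liver cells of C57BL/6J mouse embryos, with 24659978 to 44700229 gene counts per library. The 3 wild-type (WT) libraries are called WT1, WT2 and WT3. The 3 libraries called KO4, KO5 and KO6 come from embryos of genotype miR-144/451-/- (KO), in which the locus of both microRNAs is deleted. Embryonic age, sex, litter and pooling are not given in the labels. Every p-value therefore speaks only of the spread between these 6 samples, and part of that spread may be technical.

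FOXO proteins bind promoters of genes that slow the cell cycle, limit oxidative damage and adjust metabolism. When growth factors or erythropoietin activate PI3 kinase, the kinase AKT phosphorylates FOXO proteins. Adaptors of the 14-3-3 family then hold them in the cytoplasm, away from their targets. FOXO3 is the member best known in red cell formation, where it supports maturation and antioxidant defence. Ywhaz, which encodes 14-3-3 zeta, is a known target of miR-451, and the measurement here asks whether RNA of the FOXO genes and their targets differs in its absence. RNA levels do not show where a FOXO protein is in the cell.

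The deleted microRNAs are shown with their seeds (bases 2 to 8 from the 5′ end, in capitals), because pairing with target messages rests mainly on the seed. The sequences are RefSeq's, build GRCm38.p6, and all lie on the plus strand of chromosome 11.
miR-451a, chr11:78073186-78073207: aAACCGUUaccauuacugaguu
miR-144-3p, chr11:78073047-78073066: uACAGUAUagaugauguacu
miR-144-5p, chr11:78073010-78073032: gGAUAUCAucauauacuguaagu
The 3 seeds differ from each other. RNA of the deleted genes checks the labels: Mir451 had 323 to 446 counts per WT library and 2 to 4 per KO library, and Mir144 had 29 to 51 and 0 to 1.

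None of the 10 genes has a match to the miR-451a seed in its longest annotated 3' untranslated region, and 4 have a match to a miR-144 seed. Across all 21173 genes with such a region, 1.95% hold the miR-451a word AACGGTT, 12.3% the miR-144-3p word ATACTGT and 6.59% the miR-144-5p word TGATATC. Foxo1, Ccng2 and Pik3ip1 each have 1 match for miR-144-3p, and Foxo3 has 1 for miR-144-5p. Each is shown from the GENCODE transcript (GRCm38), with the matching bases in capitals.
Foxo1, miR-144-3p, chr3:52347384-52347409, plus strand: ctcttttgtaATACTGTgatggtctc
Ccng2, miR-144-3p, chr5:93276011-93276036, plus strand: tgtacataaaATACTGTAttttttta
Pik3ip1, miR-144-3p, chr11:3342124-3342149, plus strand: tgagtggcatATACTGTtattcctag
Foxo3, miR-144-5p, chr10:42184867-42184892, minus strand: gtctccaaagTGATATCtgaaggctt
The Ccng2 match is an 8mer, with an A after the seed match, and the other 3 are 7-base matches. A match is a description of letters and does not show that the site is used.

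None of the 10 genes passed the test in KO against WT livers. The lowest p-values were those of Sesn1 (log2 change 0.42, adjusted p = 0.0562 by edgeR) and Foxo4 (-0.51, adjusted p = 0.0875). All 10 passed the filter on low counts, and the test was edgeR's quasi-likelihood test with Benjamini-Hochberg adjustment over 15105 genes. At an adjusted p under 0.05, 0 members were higher and 0 lower, where 1.83% of all tested genes were higher and 1.45% lower. Before adjustment 1 member (Sesn1) lay under 0.05 on the higher side and 1 (Foxo4) on the lower side, beside 7.77% and 8.78% of all tested genes (16.6% in either direction). These 2 genes passed by DESeq2, where 4.39% of all genes were higher and 4.27% lower. By limma-voom 0 members passed, where 1.79% were higher and 1.45% lower.

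The log2 change was below 0 in 9 of 10 members, with a median of -0.27 against -0.03 over all tested genes. The share of all tested genes below 0 was not counted. Without WT2 the changes of Foxo1 (0.50), Klf15 (0.67) and Sesn3 (0.12) were above 0, while the other members kept their sign. WT and KO values did not overlap for Sesn1 on the higher side and for Foxo4 and Bcl6 on the lower side, 3 of 10 members. Over all tested genes 11.8% had every KO library above every WT library and 10.9% every KO library below, 22.7% together. The members' share is near that background.

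**Figure D1:**
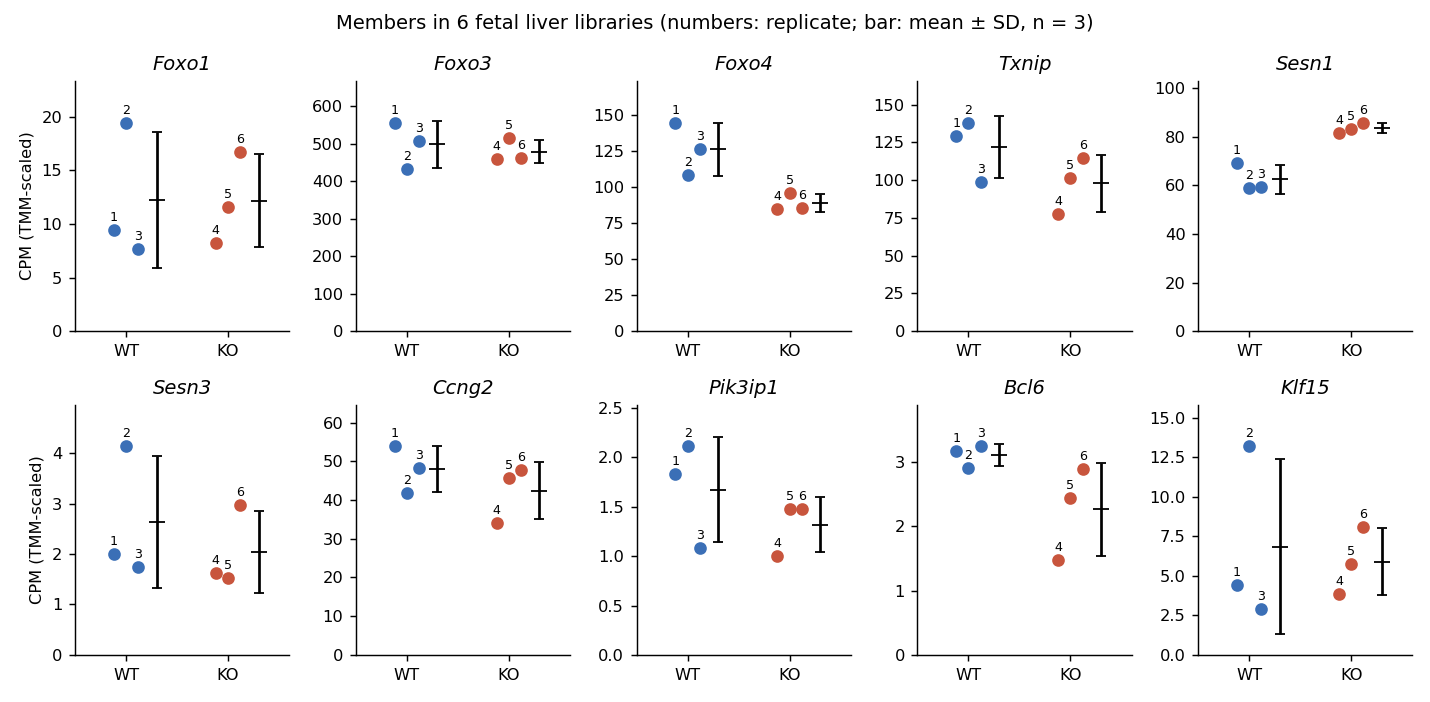
Level of each of the 10 genes in the 6 libraries, in CPM (counts scaled to TMM-adjusted library size) on an axis from 0. Points are libraries with their replicate number, and bars are mean ± SD (n = 3). Foxo4 and Bcl6 lie lower in all KO libraries than in any WT library and Sesn1 lies higher, while the other 7 overlap.

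Foxo3 was the most abundant of the 3 factors. Levels are given in CPM, counts scaled to a common library size, and per kilobase where genes are compared with each other. Per kilobase of annotated exon, its level was 65.8 ± 8.18 CPM per kb in WT and 63.2 ± 4.02 in KO (SD, n = 3 each), the highest of the 10 genes in both groups. Txnip followed at 39.1 ± 6.60 CPM per kb in WT and 31.3 ± 6.11 in KO, and Foxo4 at 36.3 ± 5.25 and 25.5 ± 1.78. The ranges of Txnip and Foxo4 overlapped in both groups, so their order is within the spread. Sesn1 (15.7 ± 1.46 in WT, 21.0 ± 0.525 in KO) and Ccng2 (8.80 ± 1.10 and 7.78 ± 1.36) came next, each apart from its neighbours. Klf15 (2.45 ± 1.99 in WT, 2.11 ± 0.756 in KO) and Foxo1 (1.41 ± 0.730 and 1.40 ± 0.497) overlapped each other. Bcl6 (0.464 ± 0.0261 in WT, 0.338 ± 0.108 in KO), Pik3ip1 (0.391 ± 0.125 and 0.309 ± 0.0645) and Sesn3 (0.172 ± 0.0859 and 0.134 ± 0.0533) were the lowest. Neighbours among these 3 overlapped in range, other than Pik3ip1 and Sesn3 in KO. Exon lengths come from GRCm38 models and may differ from those the counts were made on. The order was the same with the longest transcript as length.

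Foxo3, the factor of red cell maturation, did not change past the test. WT1, WT2 and WT3 had 556, 433 and 506 CPM, and KO4, KO5 and KO6 had 460, 514 and 462 CPM. The KO values lie inside the WT range. Its log2 change was -0.06 (95% interval -0.35 to 0.23, adjusted p = 0.940 by edgeR), so a rise above 1.17-fold or a fall below 0.786 of WT lies outside the interval. The gene lies at chr10:42181841-42276755 on the minus strand (GRCm38) and overlaps no other annotated gene. Its level had the highest correlation over the 6 libraries with Wdr26 (Pearson r = 0.995), Mxi1 (0.992) and Uqcrh (0.990) among 9140 genes of at least 10 CPM. Wdr26 is a subunit of a ubiquitin ligase, Mxi1 a MAX partner and Uqcrh a subunit of respiratory complex III. These are the highest of 9140 correlations over 6 libraries, so high values follow from the search and test nothing. Both genes of a pair also come from the same libraries, with the same cell make-up in each.

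Foxo4, the X-linked factor of the family, had lower values in KO without passing the test. Its level was 145, 108 and 126 CPM in WT1, WT2 and WT3 and 85.0, 96.1 and 85.8 CPM in KO4, KO5 and KO6. Every KO library was below every WT library. The log2 change was -0.51 (SE 0.12, 95% interval -0.79 to -0.22) with an unadjusted p of 0.00473, and its adjusted p of 0.0875 by edgeR did not pass. Over 13 alternative analyses the adjusted p ran from 0.00427 to 0.257 and passed in 5. DESeq2 gave 0.00427, the fit with hepatocyte markers as a covariate 0.0109, and the fit without WT2 0.0168. In these fits 4.27%, 8.63% and 6.61% of all genes passed as lower, and 4.39%, 8.53% and 3.16% as higher. The log2 change of Foxo4 was below 0 in all 13. Foxo4 lies at chrX:101254528-101260873 on the plus strand, with no overlapping gene. Its level was most like that of Stradb, a pseudokinase that activates LKB1 (Pearson r = 0.999 over 6 libraries).

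Markers of red cell precursors, from a list named late erythroid, had changes in the same direction as Foxo4. All 11 of these markers had a log2 change below 0, with a median of -0.55, and their summed level was 26354 to 36609 CPM in WT and 20110 to 23854 CPM in KO. Of the 11, the transferrin receptor Tfrc (-0.83, adjusted p = 0.0336) and the membrane skeleton gene Epb4.2 (-0.72, adjusted p = 0.0481, edgeR) fell. Before adjustment 8 of the 11 had p under 0.05, all lower, and DESeq2 called 8 lower, beside 8.78% and 4.27% of all tested genes. Tfrc and Epb4.2 lost the edgeR call when WT1, WT3, KO4, KO5 or KO6 was left out. In these fits 0.0326% to 0.355% of all genes passed as higher and 0.0456% to 0.289% as lower. Without single libraries the log2 change ran from -0.90 to -0.79 for Tfrc and from -0.82 to -0.61 for Epb4.2. Markers of some other blood cells also had log2 changes below 0, with 0 called by edgeR. All 5 progenitor markers had a log2 change below 0 (3 of them with an unadjusted p under 0.05), with a summed level of 237 to 277 CPM in WT and 213 to 223 CPM in KO. All 4 tested mast cell markers were below 0 (2 with such a p, and DESeq2 called Hdc lower), with sums of 38.7 to 53.3 CPM in WT and 26.6 to 32.5 CPM in KO. All 8 neutrophil markers were below 0 too, but their sums overlapped, at 2381 to 4153 CPM in WT and 1510 to 3182 CPM in KO. The part of these markers in the Foxo4 result was not tested, and in such bulk samples fewer cells of a type and less RNA per cell cannot be told apart.

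The proportion of Foxo3 to Foxo4 varied little within each group and was higher in every KO library. For each Foxo4 count there were 3.84, 4.0 and 4.01 Foxo3 counts in WT1, WT2 and WT3, and 5.42, 5.35 and 5.39 in KO4, KO5 and KO6. The groups did not overlap, and the KO mean (5.38 ± 0.0349) was 1.36 times the WT mean (3.95 ± 0.0963). The exact permutation test, two-sided, gave p = 0.10, the smallest that 3 against 3 libraries allow. Within a library this ratio does not depend on scaling. The ratio was singled out after its values were seen, so the permutation p was bound to be at its floor and tests nothing. How many other gene pairs separate the groups was not counted. Per kilobase, Foxo4 made up 35% ± 0.748 of the summed level of the 3 factors in WT and 28.3% ± 0.194 in KO, Foxo3 made up 63.6% ± 0.628 and 70.1% ± 0.451, and Foxo1 1.42% ± 0.914 and 1.56% ± 0.576 (SD, n = 3 each).

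**Figure D2:**
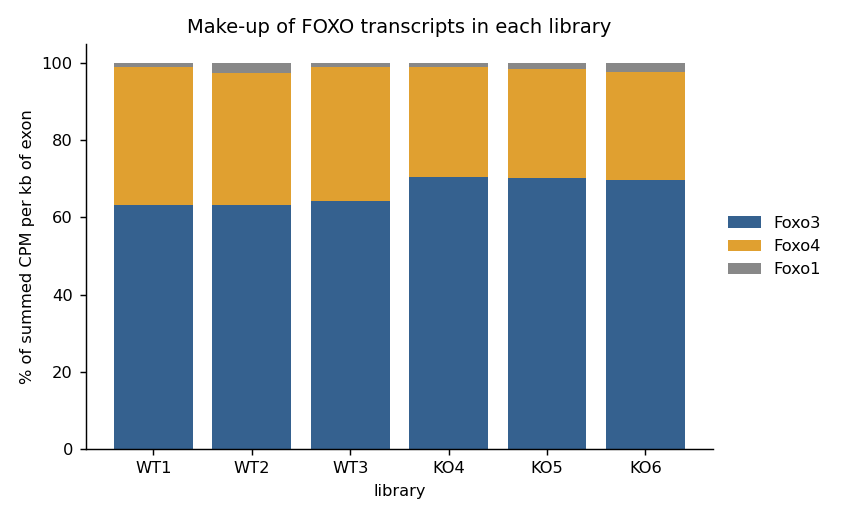
Share of Foxo3, Foxo4 and Foxo1 in their summed level (CPM per kb of exon) in each library, in percent. Foxo4 takes 34.3% to 35.8% in the WT libraries and 28.1% to 28.5% in the KO libraries.

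Foxo1, the factor that drives glucose production genes in liver, was highest in the libraries where hepatocyte markers were highest. It had 9.47, 19.4 and 7.68 CPM in WT1, WT2 and WT3, beside 8.18, 11.6 and 16.7 CPM in KO4, KO5 and KO6. WT2 and KO6 were the highest of their groups, and the groups overlapped. The mean log2(CPM + 1) of 16 hepatocyte markers such as albumin (Alb) was 7.59, 9.51 and 6.87 in WT and 7.39, 8.09 and 9.15 in KO, highest in the same 2 libraries. Their summed level was 8872 to 56992 CPM, so hepatocyte markers, like the red cell markers above, were present in all 6 libraries. Their part in the Foxo1 values was not tested beyond the fits that follow. The log2 change of Foxo1 was -0.0063 (95% interval -0.999 to 0.99, adjusted p = 0.999 by edgeR). It became 0.50 without WT2, -0.33 without KO6 and 0.22 without both. Its level was most like that of Ugt2b35 (Pearson r = 0.9999 over 6 libraries), a gene of a drug-conjugating enzyme family. Foxo1 lies at chr3:52268336-52353221 and overlaps Gm20402 on the opposite strand and Gm38034 on its own. Whether reads were assigned by strand is not given in the sources used here.

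**Figure D3:**
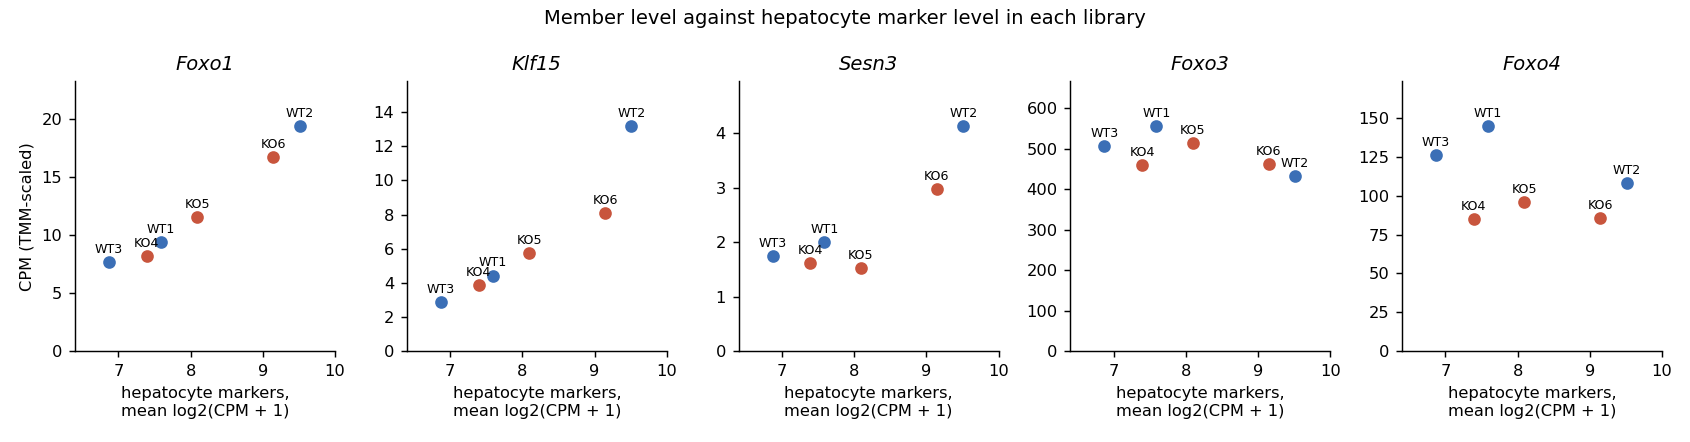
CPM of 5 members against the mean log2(CPM + 1) of 16 hepatocyte markers, each point a library (blue WT, red KO). Foxo1, Klf15 and Sesn3 are highest in WT2 and KO6, the libraries at 9.51 and 9.15 on the marker axis, whereas Foxo3 and Foxo4 are not.

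Klf15, a regulator of glucose and amino acid metabolism, showed the same order of libraries. WT1, WT2 and WT3 had 4.43, 13.2 and 2.91 CPM, and KO4, KO5 and KO6 had 3.85, 5.75 and 8.07 CPM. The log2 change was -0.22 (95% interval -1.62 to 1.18, adjusted p = 0.961 by edgeR). Without WT2 the change was 0.67, and without WT3 it was -0.58. Sesn3, the sestrin that FOXO factors induce to restrain mTORC1, was low throughout at 2.01, 4.14 and 1.74 CPM in WT and 1.62, 1.53 and 2.98 in KO. Its log2 change was -0.37 (95% interval -1.40 to 0.66, adjusted p = 0.809 by edgeR), and 0.12 without WT2. Sesn3 lies at chr9:14275067-14333101 (GRCm38). For both genes WT2 was the highest of all 6 libraries and KO6 the highest of the KO group. Without a covariate the intervals of Foxo1, Klf15 and Sesn3 each include a change of 1.5-fold in either direction. With hepatocyte markers as a covariate the log2 changes were -0.059 (SE 0.088, adjusted p = 0.708 by edgeR) for Foxo1, -0.16 (SE 0.13, adjusted p = 0.442) for Klf15 and -0.41 (SE 0.18, adjusted p = 0.152) for Sesn3, with smaller standard errors.

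Sesn1 was the 1 member with a log2 change above 0. It encodes a stress-induced sestrin that limits mTORC1 signalling and is also a target of p53. It reached 69.2, 58.8 and 59.5 CPM in WT1, WT2 and WT3, against 81.7, 83.0 and 85.8 CPM in KO4, KO5 and KO6. All KO libraries were above all WT libraries. The mean went from 62.5 ± 5.80 to 83.5 ± 2.09 CPM, a 1.34-fold difference (log2 change 0.42, SE 0.08, 95% interval 0.21 to 0.62). The unadjusted p was 0.00209 and the adjusted p of 0.0562 by edgeR did not pass. Over 13 alternatives the adjusted p ran from 4.3e-04 to 0.223 and passed in 6, with a log2 change above 0 in all 13. DESeq2 gave 4.3e-04, the fit without WT2 0.0437 and the fit with hepatocyte markers as a covariate 0.00704. In these fits 4.39%, 3.16% and 8.53% of all genes passed as higher, and 4.27%, 6.61% and 8.63% as lower. The direction of Sesn1 was opposite to that of the red cell markers. Sesn1 lies at chr10:41809935-41908424 on the plus strand and overlaps 9930024M15Rik on the same strand.

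Txnip, the inhibitor of thioredoxin and of glucose uptake, had 129, 138 and 98.7 CPM in WT1, WT2 and WT3. The KO4, KO5 and KO6 libraries had 77.3, 101 and 115 CPM, so the groups overlapped, with KO4 the lowest of all. Txnip had a log2 change of -0.32 (95% interval -0.76 to 0.12, adjusted p = 0.479 by edgeR). With hepatocyte markers as a covariate it was -0.37 and passed (adjusted p = 0.0382), in a fit where 8.63% of all genes passed as lower and 8.53% as higher. Txnip lies at chr3:96557957-96561883 on the plus strand and overlaps Gm15441 on the opposite one.

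Promoter windows of 250 bases before to 50 after the start were held for 9 members, and Foxo4 had no entry. The word TGTTTAC, a core of the FOXO binding element, was searched on both strands (reverse complement GTAAACA). It was found for Txnip and Sesn1, 2 of 9 members, which together have 11 windows, and in 3.65% of all 32851 such windows. These matches are shown because both genes are known targets, and their changes had opposite signs. The Txnip match begins 121 bases before the start and reads as the reverse complement; the 250 bases before the start are printed (RefSeq, GRCm38.p6), with the match in capitals.
Txnip, chr3:96557707-96557956, plus strand: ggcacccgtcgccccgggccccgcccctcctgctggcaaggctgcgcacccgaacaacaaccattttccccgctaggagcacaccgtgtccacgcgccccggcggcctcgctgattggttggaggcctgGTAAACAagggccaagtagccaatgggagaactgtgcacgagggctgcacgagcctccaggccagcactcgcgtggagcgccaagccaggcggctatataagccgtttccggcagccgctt
The Sesn1 match begins 22 bases after the start of 1 of its 2 windows and reads forward.
Sesn1, chr10:41810585-41810613, plus strand: gaaccttctacTGTTTACcagccttttgg
A match is no evidence of binding, and no binding data were analysed here.

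Ccng2, an unusual cyclin that accompanies cell cycle arrest, had 53.9, 41.9 and 48.3 CPM in WT1, WT2 and WT3 and 34.0, 45.6 and 47.8 CPM in KO4, KO5 and KO6. The groups overlapped, and KO4 was the lowest. Its log2 change was -0.18 (95% interval -0.56 to 0.20, adjusted p = 0.705 by edgeR), so the gene with the 8mer match to miR-144-3p was not higher past the test. The interval leaves out a rise above 1.15-fold. Pik3ip1, which encodes a membrane protein that restrains PI3 kinase, had only 26 to 74 counts per library. Its CPM values were 1.83, 2.11 and 1.08 in the WT libraries and 1.0, 1.48 and 1.48 in the KO libraries, with overlap. The log2 change was -0.35 (95% interval -1.1 to 0.40, adjusted p = 0.702 by edgeR). Ccng2 lies at chr5:93267257-93276231, and Pik3ip1 at chr11:3330401-3342971, where it overlaps Gm12592 on the opposite strand.

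Bcl6, a repressor known from germinal centre B cells, had 69 to 119 counts per library. WT1, WT2 and WT3 had 3.18, 2.91 and 3.24 CPM, and KO4, KO5 and KO6 had 1.47, 2.43 and 2.88 CPM. KO6 was just under the lowest WT library and KO4 far below it. Bcl6 had a log2 change of -0.46 (95% interval -1.11 to 0.19, adjusted p = 0.494 by edgeR). Without KO4 it was -0.24. The summed level of 6 B-lymphoid markers was 41.7, 72.5 and 26.4 CPM in WT and 17.5, 38.5 and 37.6 in KO, with KO4 the lowest there too. Within WT the order was opposite, as WT3 had the most Bcl6 and the lowest marker sum, and WT2 the reverse. KO4 was also the lowest library for the neutrophil and mast cell sums. By edgeR 0 of the 6 B-lymphoid markers passed, before or after adjustment, and all had a log2 change below 0. Their part in the Bcl6 result was not tested. Bcl6 lies at chr16:23965052-23988852 on the minus strand and overlaps Gm37419 on the plus strand.

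**Figure D4:**
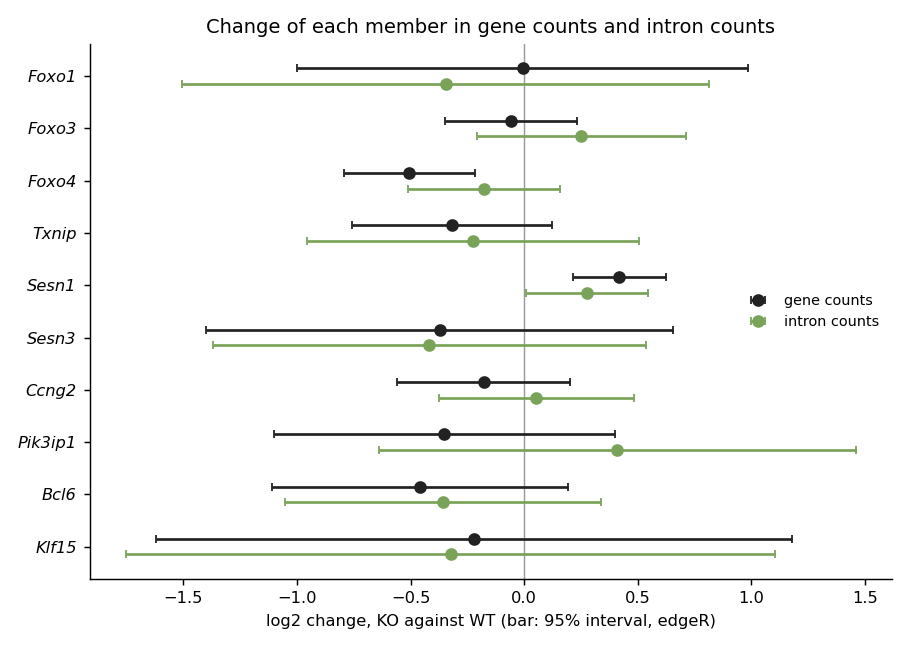
Log2 change of each member, KO against WT, in gene counts (black) and intron counts (green), with 95% intervals from edgeR. The gene count intervals of Foxo4 (-0.79 to -0.22) and Sesn1 (0.21 to 0.62) leave out 0.

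Intron counts, used here as a stand-in for unspliced RNA, gave no call among the members. How introns were defined is not stated, so other RNA counted there cannot be told apart. By edgeR 0 of 10 passed, where 0.237% of 11803 tested genes were higher and 0.483% lower. Before adjustment 1 was higher (Sesn1) and 0 lower, beside 5.39% and 5.45% of all tested genes (10.8% in either direction). DESeq2 called 0, where 1.04% were higher and 1.84% lower. It gave no adjusted p for Foxo1, Sesn3 and Pik3ip1, so these could not be called by it. Intron CPM values are scaled to the library's intron total after TMM adjustment. Sesn1 introns had 145, 154 and 130 CPM in the WT libraries and 169, 173 and 177 CPM in the KO libraries, again without overlap (log2 change 0.28, unadjusted p = 0.0438, adjusted p = 0.444 by edgeR). The part of 9930024M15Rik, which overlaps Sesn1 on the same strand, was not tested. Sesn1 and Foxo4 were the 2 members whose intron values did not overlap, where 9.92% of all tested genes had every KO library above every WT library, 7.57% every KO library below and 17.5% either. Foxo4 introns were 59.8, 74.6 and 59.1 in WT and 58.2, 57.6 and 55.4 in KO (log2 change -0.18, adjusted p = 0.779 by edgeR). The gap between the Foxo4 groups was under 1 CPM, and scaled to intron totals without TMM the groups overlap. Foxo3 introns were 231, 224 and 148 in WT and 271, 247 and 200 in KO (0.25, adjusted p = 0.766 by edgeR), with overlap. Without WT3 the Foxo3 intron change was 0.039. The other 7 members had intronic log2 changes between -0.42 (Sesn3) and 0.41 (Pik3ip1), with adjusted p from 0.787 to 0.991.

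The exonic and intronic changes did not differ past the test for any of the 10. By edgeR's interaction test 0 members passed and 0 had an unadjusted p under 0.05, where 0% of 11100 tested genes passed and 3.17% had such a p. DESeq2 called 0 members, where 0.333% were higher and 0.018% lower. For Foxo4 the exonic change was lower than the intronic one by -0.33 on the log2 scale (95% interval -0.83 to 0.17). For Sesn1 the difference was 0.14 (95% interval -0.20 to 0.48). For Foxo3 it was -0.32 (95% interval -0.92 to 0.28), and ran from -0.49 to -0.063 without single libraries. All 3 intervals include 0, and the other 7 members ran from -0.69 (Pik3ip1) to 0.36 (Foxo1).

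Intron reads made up very different shares of these genes. Txnip had 3.65% ± 1.52 of its exon plus intron counts in introns in WT and 3.24% ± 0.498 in KO, while Sesn1 had 34.2% ± 4.77 and 29.9% ± 3.49 (SD, n = 3 each). Over the whole table the share was 16.9% to 23.4% per library, highest in WT3. Klf15 stood apart in that library, with 501 intron counts beside 70 exon counts, an intron share of 87.7%, against 33.9% and 25.6% in the other WT libraries and 44.5% to 51.9% in KO. No other gene is annotated in the Klf15 interval (chr6:90462576-90475238, GRCm38). Its intronic log2 change was -0.32, and 0.68 without that library.

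For each target the 1 gene whose log2 CPM followed it most closely over the 6 libraries was named, among about 9140 genes of at least 10 CPM. The highest of so many correlations over 6 libraries is high through the search itself and tests nothing. Sesn1 went with Atp6v1b2 (Pearson r = 0.995), a subunit of the lysosomal proton pump. Atp6v1b2 lay higher in every KO library (log2 change 0.30, adjusted p = 0.0900 by edgeR). It was picked for its likeness to Sesn1 in these libraries, so this is no separate result. Txnip went with the polyamine enzyme gene Sat1 (0.993), Ccng2 with the sphingomyelin synthase gene Sgms1 (0.979), Pik3ip1 with Zbtb7b (0.998) and Bcl6 with B3gnt3 (0.940). Sesn3 went with Arap1 (0.996), and Klf15 with Scp2-ps2 (0.997), a pseudogene named for Scp2, so its counts are uncertain where the copies share sequence.

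The genes that control FOXO proteins were read from lists of the pathway. Of 7 genes of the 14-3-3 family Ywhaz rose, with 193, 192 and 195 CPM in the WT libraries and 355, 351 and 331 CPM in the KO libraries (log2 change 0.84, SE 0.07, adjusted p = 0.00830 by edgeR), and the other 6 did not pass. DESeq2 called Ywhaz and Ywhae higher and Ywhah lower. The shares over all tested genes were 1.83% higher and 1.45% lower by edgeR, and 4.39% and 4.27% by DESeq2. Of 19 genes of the PI3 kinase and AKT pathway Pik3r1 fell and 0 rose. Pik3r1 encodes p85 alpha, the main regulatory subunit of PI3 kinase, and had 221, 205 and 219 CPM in the WT libraries and 144, 145 and 143 CPM in the KO libraries. Its replicates differed little, and the groups were far apart (log2 change -0.58, SE 0.07, adjusted p = 0.0160 by edgeR). Neither call held when WT1, WT3, KO4 or KO5 was left out, and the adjusted p then rose to as much as 0.0675 for Ywhaz and 0.0951 for Pik3r1. In these fits 0.0326% to 0.0913% of all genes passed as higher and 0.0456% to 0.0783% as lower. Without single libraries the log2 change ran from 0.81 to 0.86 for Ywhaz and from -0.61 to -0.56 for Pik3r1. The kinase genes Akt2 (127 ± 10.6 to 157 ± 4.62 CPM, log2 change 0.31, adjusted p = 0.125) and Sgk3 (177 ± 17.0 to 230 ± 18.6, 0.38, adjusted p = 0.129) did not pass by edgeR and did by DESeq2. Akt2 and Sgk3 were chosen after their values were seen. The median log2 change was 0.0035 for the 14-3-3 genes and 0.0095 for the PI3 kinase list, against -0.03 over all tested genes.

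Genes that modify FOXO proteins by other means, such as acetylation, ubiquitin or nuclear export, did not pass. Of 22, 0 rose and 0 fell by edgeR, and before adjustment 2 were higher and 4 lower, while DESeq2 called 1 higher and 3 lower and limma-voom 0. Over all tested genes 7.77% were higher and 8.78% lower before adjustment, and 4.39% and 4.27% by DESeq2. The most abundant were the deubiquitinase Usp7 (785 ± 129 CPM in WT, 642 ± 36.1 in KO, log2 change -0.29, adjusted p = 0.401) and the exportin Xpo1 (463 ± 60.8 and 428 ± 19.4, -0.11, adjusted p = 0.791, edgeR, n = 3 each). Usp7 passed when WT2 was left out (adjusted p = 0.0276) and when both WT2 and KO6 were (adjusted p = 0.0245). In these fits 6.61% and 5.56% of all genes passed as lower, and 3.16% and 3.85% as higher.

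Other known FOXO targets did not pass either. Of 40 genes on 6 lists, 37 could be tested and 0 passed by edgeR or limma-voom, while DESeq2 called 3 higher (Gabarapl1, Pnpla2 and Rbl2) and 1 lower (Atg12). Before adjustment 5 were higher and 2 lower, beside 7.77% and 8.78% of all tested genes, and the DESeq2 counts stand beside 4.39% and 4.27%. The list's median log2 change was 0.05 against -0.03 over all tested genes. Among antioxidant targets, catalase (Cat) had 672 ± 91.9 CPM in WT livers and 547 ± 74.6 CPM in KO livers (log2 change -0.30, adjusted p = 0.411 by edgeR), and the selenium carrier Sepp1, made by hepatocytes, 578 ± 493 and 598 ± 371 (0.05, adjusted p = 0.998). Among cell cycle targets the CDK inhibitor Cdkn1b measured 165 ± 22.6 and 140 ± 16.3 (-0.24, adjusted p = 0.442) and the DNA damage gene Gadd45a 110 ± 21.0 and 132 ± 13.8 (0.26, adjusted p = 0.500). Among cell death targets the BH3-only gene Bcl2l11 measured 27.3 ± 2.89 and 30.1 ± 0.813 (0.14, adjusted p = 0.618) and the mitophagy receptor Bnip3 51.6 ± 22.9 and 70.2 ± 29.1 (0.44, adjusted p = 0.696, edgeR, n = 3 each). The change of Bnip3 was 0.034 without KO6 and 0.87 without WT2. With hepatocyte markers as a covariate it was 0.35 and passed (adjusted p = 0.0305). In that fit 8.53% of all genes passed as higher and 8.63% as lower.

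All 6 tested metabolic targets had a log2 change above 0, with a median of 0.46 against -0.03 over all tested genes. By edgeR and limma-voom 0 of the 6 passed, and 2 were higher before adjustment, while DESeq2 called Pnpla2 higher. The shares over all tested genes were 7.77% higher and 8.78% lower before adjustment, and 4.39% and 4.27% by DESeq2. Pck1 had only 5 to 23 counts per library, and Pdk4 13 to 200. Igfbp1, an insulin-repressed hepatocyte gene, reached 374 CPM in KO6 against 19.4 to 88.0 in the other 5 libraries (log2 change 1.68, SE 0.87, adjusted p = 0.420 by edgeR), and its change was 0.31 without KO6. Irs2, an insulin receptor substrate, had 31.3 ± 0.174 CPM in WT livers and 37.6 ± 2.61 CPM in KO livers, without overlap (0.27, adjusted p = 0.179 by edgeR). With the covariate Irs2 passed (adjusted p = 0.0355), in a fit where 8.53% of all genes passed as higher and 8.63% as lower. Autophagy targets included the kinase Ulk1 (183 ± 25.7 and 192 ± 23.1 CPM, 0.07, adjusted p = 0.930) and Map1lc3b (128 ± 13.3 and 135 ± 11, 0.07, adjusted p = 0.870). Lymphoid targets included the sphingosine phosphate receptor S1pr1 (9.18 ± 4.80 and 9.20 ± 3.81, -0.0011, adjusted p = 0.9999, edgeR, n = 3 each). S1pr1 overlapped fully between the groups.

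**Figure D5:**
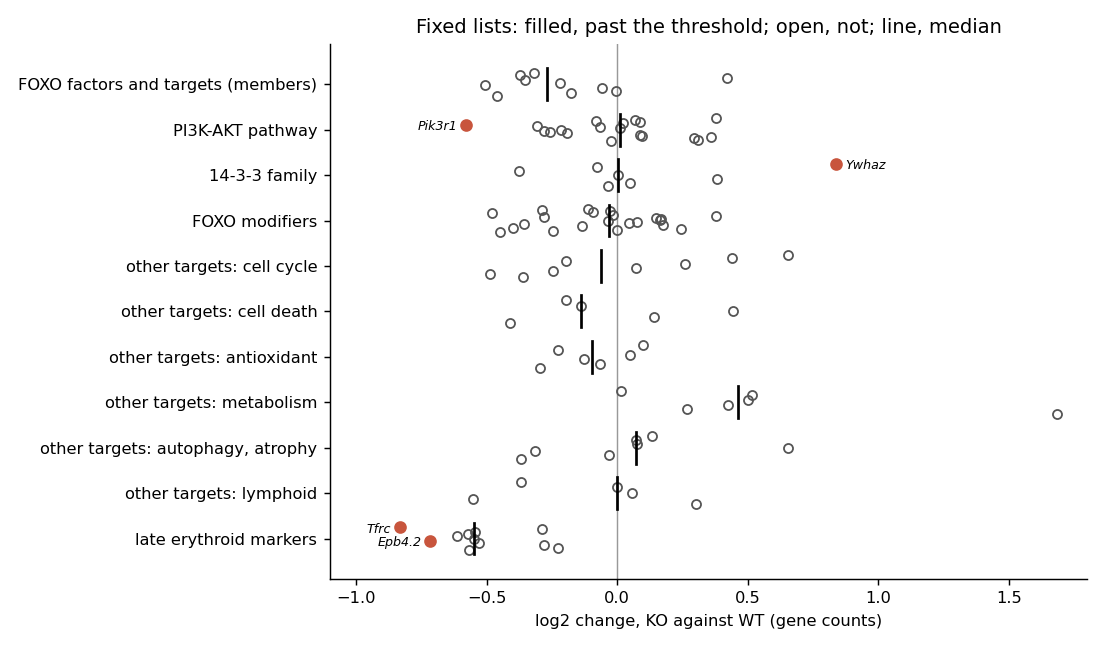
Log2 change (KO against WT, gene counts) of each tested gene on the lists of FOXO regulators, FOXO targets and late erythroid markers. Filled points passed edgeR's test at an adjusted p under 0.05, open points did not, and lines are list medians. Ywhaz (0.84), Pik3r1 (-0.58), Tfrc (-0.83) and Epb4.2 (-0.72) are the filled points.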

How the data were processed

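Raw counts by gene symbol, as the authors deposited them, were the only unit used: 1 table of gene counts and 1 of exon and intron counts, whose exon counts equal the gene counts for all 15543 genes in both. The submitters' processing notes list STAR, HTSeq, NCBIM37 and mm10, but the strand setting, gene models and intron definition behind the tables are not stated there. The name of the gene table gives NCBIM37 and reads as counts without globin and mitochondrial genes, and symbols beginning with Hba, Hbb or mt- are absent from it, so library sizes leave these transcripts out. Gene counts total 24659978 to 44700229 per library. Same-group libraries differed beyond sampling noise (chi-square per degree of freedom 16.7 to 157).

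TMM scaling, filterByExpr (minimum count 10, minimum total 15) and two-sided quasi-likelihood tests used edgeR 4.0.16 under R 4.3.3, over whole tables, with a threshold of 0.05 on the adjusted p. Standard errors come from the F statistic, and intervals use the fit's degrees of freedom. Exonic and intronic changes were set against each other by an interaction with a term per sample. Alternatives used DESeq2 1.42.0 and limma 3.58.1 (voom), other scaling, no filter, a hepatocyte covariate and left-out libraries. The scripts were tested on simulated data. Members and lists were chosen with earlier results of these data known. Named are the members, Ywhaz, up to 4 called genes per pathway list or else its 2 most abundant, and the 3 genes most like Foxo3 and 1 most like each other member. Some genes that this rule takes are not reported here.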

Additional observations from a re-analysis of the deposited data

How the results depend on the processing

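No paired analysis was possible because WT libraries carry replicate numbers 1 to 3 and KO libraries 4 to 6. Member calls in gene counts, 0 higher and 0 lower, became 1 and 1 by DESeq2, without WT2 and KO6 together and with upper quartile factors, 1 and 0 with RLE factors, and 1 and 2 with the hepatocyte covariate. Leaving out single libraries gave 0 to 1 in each direction, the 1 being Sesn1 or Foxo4 without WT2. Calls over all genes, 276 higher and 219 lower, became 663 and 645 by DESeq2, 580 and 838 without WT2 and KO6, 424 and 372 with upper quartile factors and 1288 and 1304 with the covariate, and ran from 5 to 483 and 7 to 1012 without single libraries. Intron calls, 28 and 57, became 123 and 217 by DESeq2, 1 and 0 without WT2 and KO6 and 5 and 9 with the covariate, and ran from 4 to 27 and 6 to 121 without single libraries. Interaction calls, 0 and 0, became 37 and 2 by DESeq2 and 9 and 0 without the sample term, and ran from 0 to 44 and 0 to 106, the highest without WT3. The cause was not tested.

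Sign changes, none past the threshold, were seen without WT2 and KO6 for Foxo1 (0.22), Klf15 (0.40), S1pr1 (0.14), Ccng2 introns (-0.072) and the exonic against intronic change of Klf15 (0.90). They were also seen with no low-count filter for Foxo1 (0.034) and S1pr1 (0.038), by DESeq2 for the exonic against intronic change of Txnip (0.011) and without the sample term for that of Klf15 (0.10). Without single libraries, gene count changes ran from -0.33 to 0.50 for Foxo1, -0.15 to 0.030 for Foxo3, -0.58 to 0.67 for Klf15, -0.77 to 0.12 for Sesn3, -0.60 to 1.01 for Sepp1, -0.035 to 0.18 for Ulk1 and -0.42 to 0.51 for S1pr1. Intron changes ran from -0.76 to 0.097 for Foxo1, -0.57 to 0.041 for Txnip, -0.068 to 0.12 for Ccng2, -0.010 to 0.59 for Pik3ip1 and -0.74 to 0.68 for Klf15. Exonic against intronic changes ran from -0.18 to 0.23 for Txnip, -0.48 to 0.56 for Sesn3, -0.37 to 0.019 for Bcl6 and -1.14 to 0.79 for Klf15. Counts of 42 to 145 for Sesn3, 26 to 74 for Pik3ip1 and 69 to 119 for Bcl6 per library limit what can be seen for these genes.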
